A study of Mus musculus with 4 samples.

Results

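Matrix metalloproteinases (MMPs), their tissue inhibitors (TIMPs) and the related ADAMTS and ADAMTS-like (ADAMTSL) genes were examined in sorted cells of the mouse lower incisor. The members were the protein-coding genes in the count table whose GENCODE symbols belong to these families, without the enamel protease gene Mmp20. This gave 49 of 55487 genes: 21 MMP genes, 4 TIMP genes, 19 ADAMTS genes and 5 ADAMTSL genes. Control libraries came from C57 mice with Ptipf/f alleles, which are floxed alleles of Ptip (symbol Paxip1). Knockout libraries came from C57 mice that carried the same Ptipf/f alleles and Sp7-cre, a Cre driven by Sp7, whose product is a transcription factor of osteoblasts and odontoblasts. All mice were at postnatal day 30, and each group had 2 libraries. The controls had no Cre, so effects of Ptip loss and of the Cre transgene cannot be told apart. PTIP is a subunit of histone methyltransferase complexes, and the series title ties it to tooth development and Wnt signalling.

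MMPs are zinc-dependent enzymes that are made as inactive proenzymes and cut collagens, proteoglycans and other proteins outside the cell. TIMPs bind the active site of MMPs and block it, and TIMP3 also blocks several ADAMTS enzymes. ADAMTS enzymes are secreted, and some trim procollagens or cut aggrecan and versican, whereas the ADAMTSL proteins lack the protease domain. In a continuously growing incisor these enzymes act in the pulp, the ligament around the root and the enamel organ.

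Totals were 15154246 to 19142757 counts per library, and members were compared as CPM, counts scaled to a common library size, with TMM scaling factors. Paxip1 stood at 28.3 and 44.3 CPM in controls 1 and 2 and at 5.69 and 3.98 CPM in knockouts 1 and 2, so the targeted gene was low in the libraries labelled knockout. The log2 fold change of Paxip1 was -2.91 (SE 0.48), with an adjusted p of 0.150 in edgeR's quasi-likelihood test. No gene of the 17128 tested passed an adjusted p of 0.05 in that test. The labels call the cells dental progenitors of the pulp. The 8 dental mesenchyme markers summed to 968 to 3735 CPM, and 8 dental epithelium markers to 22727 to 63457 CPM. Of the latter, Ambn alone stood at 18171 to 52583 CPM and was abundant in all libraries. The other 7 epithelium markers summed to between 948 CPM (knockout 2) and 10874 CPM (control 1). Separate animals for each library are not stated in the labels, so the p-values reflect only how these samples vary, which may be technical.

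Among the 41 members with enough counts to be tested, no member passed in either direction, as for all genes (0% called). DESeq2 tested 44 members. It called 0 of the 44 higher, against 2.72% of all genes, and 3 of the 44 lower (Mmp3, Adamts14 and Adamtsl2), against 5.69% of all genes. At an unadjusted p under 0.05 in edgeR, 3 members were higher in the knockout and 4 were lower. These are 7.32% and 9.76% of the tested members, against 7.32% and 9.89% of all genes tested. Both knockouts lay above both controls for 4 members (9.76%), against 25.8% of all genes, and below both controls for 12 members (29.3%), against 24.9%. The median log2 fold change of the tested members was -0.12, against 0.00 over all genes. By unadjusted p, the shares of members were near those of all genes. By family, the medians were -0.09 for MMP, 0.25 for TIMP, 0.05 for ADAMTS and -0.80 for ADAMTSL genes. The MMP median became positive without control 2 (0.78), without knockout 1 (0.26) and with a stricter filter on low counts (0.13). The TIMP median became negative without control 1 and without knockout 2 (-0.19 in each). The ADAMTS median became negative without control 1 (-0.40), without knockout 2 (-0.28) and with the stricter filter (-0.21). The signs of these 3 medians thus depended on single libraries, and that of the ADAMTSL genes stayed negative (-1.18 to -0.26) with 1 library left out. A gene tested only through counts in 1 group had to differ, so these counts describe the tested members and not all 49.

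**Figure D1:**
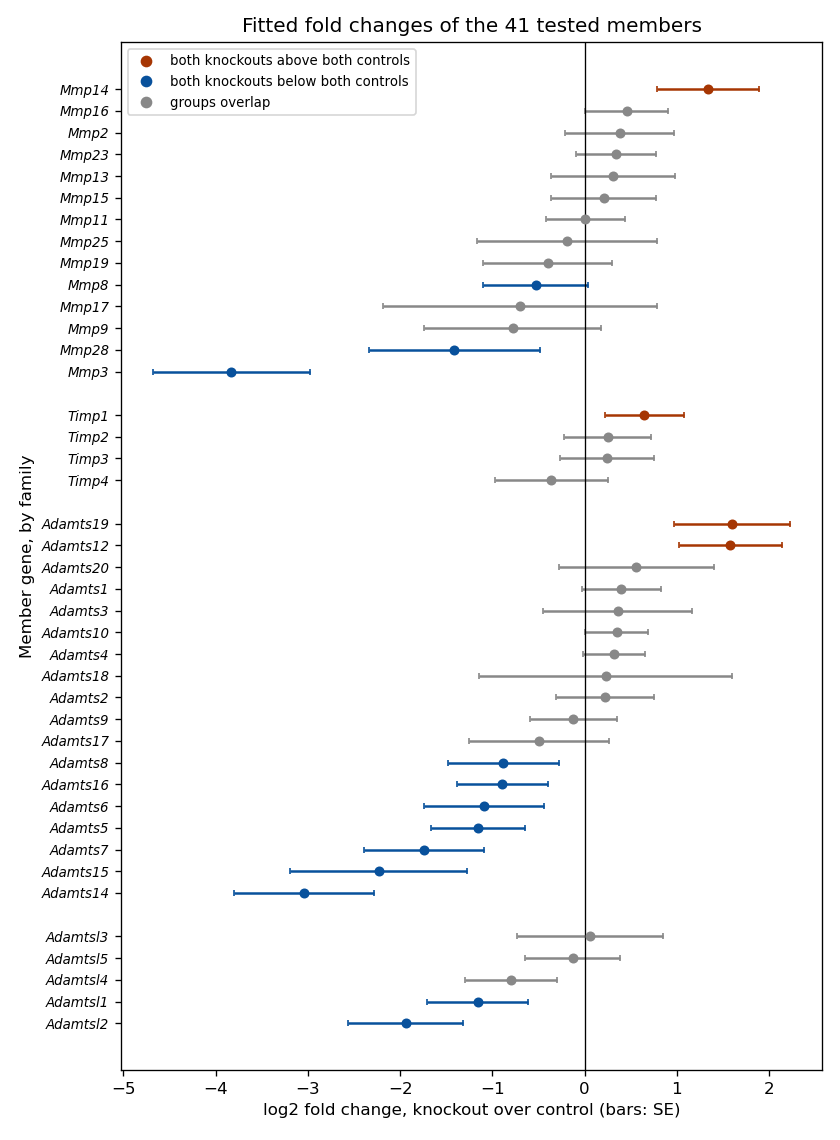
Fitted log2 fold changes, knockout over control, of the 41 tested members by family, with bars of 1 SE from edgeR. Orange points are members with both knockouts above both controls (4), blue points those with both below (12), and grey points those whose groups overlap; Mmp3 at -3.83 and Adamts14 at -3.04 lie lowest.

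Promoter sequences were taken for the members that carry the contrasts below: Mmp3 and Mmp13, which lie in 1 gene cluster and had different values, Mmp14 and Adamts14. Each sequence is the 250 bases before the RefSeq start site (GRCm38.p6), 5′ to 3′ on the gene's strand. Capitals mark the AP-1 motif TGANTCA and the RUNX motif TGTGGT, searched on both strands; none of the matches overlap.
Mmp3 promoter, chr9:7445572-7445821, plus strand: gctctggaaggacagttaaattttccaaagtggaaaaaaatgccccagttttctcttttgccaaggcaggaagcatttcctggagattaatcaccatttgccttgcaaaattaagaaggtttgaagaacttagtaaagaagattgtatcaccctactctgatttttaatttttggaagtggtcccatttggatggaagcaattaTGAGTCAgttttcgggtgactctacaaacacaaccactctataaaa
Mmp13 promoter, chr9:7272264-7272513, plus strand: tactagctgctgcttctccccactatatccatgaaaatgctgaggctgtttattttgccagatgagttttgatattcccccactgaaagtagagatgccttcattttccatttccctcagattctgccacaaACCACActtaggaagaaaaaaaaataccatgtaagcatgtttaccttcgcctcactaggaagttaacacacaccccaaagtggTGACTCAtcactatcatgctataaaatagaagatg
Mmp14 promoter, chr14:54431348-54431597, plus strand: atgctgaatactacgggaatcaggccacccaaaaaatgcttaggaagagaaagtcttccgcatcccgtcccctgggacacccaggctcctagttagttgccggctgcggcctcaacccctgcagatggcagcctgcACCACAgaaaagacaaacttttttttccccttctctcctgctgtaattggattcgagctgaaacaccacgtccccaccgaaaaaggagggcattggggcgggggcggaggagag
Adamts14 promoter, chr10:61273420-61273669, minus strand: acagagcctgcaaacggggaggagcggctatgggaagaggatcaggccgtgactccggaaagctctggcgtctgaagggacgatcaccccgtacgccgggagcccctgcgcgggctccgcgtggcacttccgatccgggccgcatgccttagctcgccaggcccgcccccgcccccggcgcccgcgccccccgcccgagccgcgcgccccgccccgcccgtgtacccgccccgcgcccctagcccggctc
RefSeq windows were found for 34 of the 49 members. The AP-1 motif was present in 6 of the 37 windows of members (16.2%), against 6.75% of 32851 windows of all genes. Those 6 windows belong to Mmp3, Mmp10, Mmp12, Mmp13, Mmp1b and Mmp7, which are members of the MMP cluster on chromosome 9. The match starts 46 bases before the start site in Mmp3 and 35 bases before it in Mmp13, and the Adamts14 and Mmp14 windows hold none. The RUNX motif was present in 6 of the 37 windows (16.2%), against 14% of all windows, among them Mmp13 and Mmp14. These matches describe letters only, and binding was not measured.

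Stromelysins cut a wide range of matrix proteins and activate other MMP proenzymes. Mmp3, the gene of stromelysin 1 (chromosome 9 from 7445822 to 7455975, plus strand, GRCm38), was the member with the smallest p. Its level was 110 and 166 CPM in controls 1 and 2 and 16.9 and 2.52 CPM in knockouts 1 and 2, from 1583, 2609, 329 and 45 counts. Both knockouts were far below both controls, and the knockouts also differed from each other by a log2 ratio of -2.74. The fitted level was 14.2-fold lower (log2 fold change -3.83, SE 0.85). The adjusted p values were 0.161 by edgeR, 2.06e-06 by DESeq2 and 0.0764 by limma-voom. With 1 library left out, edgeR gave -2.99 (without knockout 2) to -5.76 (without knockout 1), and the adjusted p was under 0.05 without knockout 1 (4.46e-06) and without control 1 (0.00934). In such fits 1 group is a single library, and the spread comes from the other group alone, so these p-values do not add support. As a share of all MMP counts, Mmp3 made up 7.46% and 4.66% in controls, against 0.891% and 0.0553% in knockouts. Mmp10, the gene of stromelysin 2 next to it, had 6, 5, 2 and 33 counts and was too low to be tested. How reads shared by related genes were counted is not given in the sources used here.

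The summed markers of several other cell types were, like Mmp3, lower in both knockouts than in either control. The sort gate took cells without CD45 (a leukocyte protein), Ter119 (erythroid) or Tie2 (endothelial), and genes used as markers of these cell types still had counts. Of the 7 Schwann cell markers, the summed level was 372 and 544 CPM in controls against 117 and 156 CPM in knockouts, and Foxd3 was at 0 in all libraries but control 2. Endothelial markers summed to 755 and 1242 CPM against 661 and 609 CPM, and 4 of 8 were lower in both knockouts. Macrophage markers summed to 227 and 154 CPM against 136 and 90.0 CPM, and the 5 erythroid markers to 319 and 303 CPM against 65.2 and 76.1 CPM. No endothelial, macrophage or erythroid marker was at 0 in any library. Without Pecam1, the most abundant of its list, the endothelial sum overlapped between the groups (450 and 843 against 479 and 443 CPM). Within the groups Mmp3 was higher in control 2 and in knockout 1. The part of Schwann, endothelial, macrophage and erythroid cells in the lower members was not tested. In bulk RNA, fewer cells of a type and less RNA per cell cannot be told apart.

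The chromosome 9 cluster holds 8 members within 427.1 kb, from 7272514 to 7699585: Mmp13, Mmp12, Mmp1b, Mmp3, Mmp10, Mmp8, Mmp27 and Mmp7. Only Mmp13, Mmp3 and Mmp8 passed the filter on low counts. Mmp13, the gene of collagenase 3, which cuts fibrillar collagen, stood at 162 and 596 CPM in controls and 277 and 659 CPM in knockouts. The groups overlapped, and its log2 fold change was 0.31 (SE 0.67, adjusted p = 0.873 in edgeR). Mmp8, the neutrophil collagenase, stood at 7.72 and 7.38 CPM against 5.84 and 4.60 CPM (-0.53, SE 0.57). The knockouts lay below the controls by a small margin that did not pass (adjusted p = 0.703 in edgeR). Mmp12, the gene of macrophage elastase, had 114 counts in knockout 1 and 0 in each of the other libraries, where a count of 0 allows up to 0.198 CPM. Mmp27 had 9, 23, 4 and 0 counts, Mmp7 had 3 counts in control 2 only, and Mmp1b had none.

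Gelatinases cut denatured collagen and basement membrane collagen. Mmp2, the gene of gelatinase A, was the most abundant member per exonic kilobase, with a mean of 554 CPM per kb, ahead of Mmp13 (158), Timp3 (77.9) and Mmp14 (48.7). It stood at 944 and 2305 CPM in controls and 1172 and 3043 CPM in knockouts. The groups overlapped, with the libraries numbered 2 above those numbered 1, and the log2 fold change was 0.38 (SE 0.59, adjusted p = 0.813 in edgeR). The sign turned without control 1 (-0.11) and without knockout 2 (-0.43). Mmp2 took 61.9% to 66.7% of all MMP counts in each of the 4 libraries. Mmp9, the gene of gelatinase B, known from neutrophils and osteoclasts, stood at 8.13 and 68.9 CPM in controls and 34.4 and 10.5 CPM in knockouts. Its order within the groups was thus opposite, and its log2 fold change of -0.78 (SE 0.96, adjusted p = 0.747 in edgeR) became 1.41 without control 2. The 12 neutrophil markers summed to 532 and 326 CPM in controls and 205 and 73.0 CPM in knockouts, with Ly6g at 0 in knockout 2. Without Mpo, the most abundant of them, the sums overlapped (245 and 146 against 173 and 47 CPM). Most of the other neutrophil markers overlapped between the groups. The 7 osteoclast markers summed to 224 and 278 CPM against 308 and 379 CPM, and Ocstamp and Atp6v0d2 were at 0 in all 4 libraries. Most of each osteoclast sum was Ctsk, and without it the groups overlapped (90.5 and 31.8 against 84.4 and 72.4 CPM). Dcstamp had 24 and 1 counts in controls and 0 in both knockouts. The part of both lists in the Mmp9 values was not tested.

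**Figure D2:**
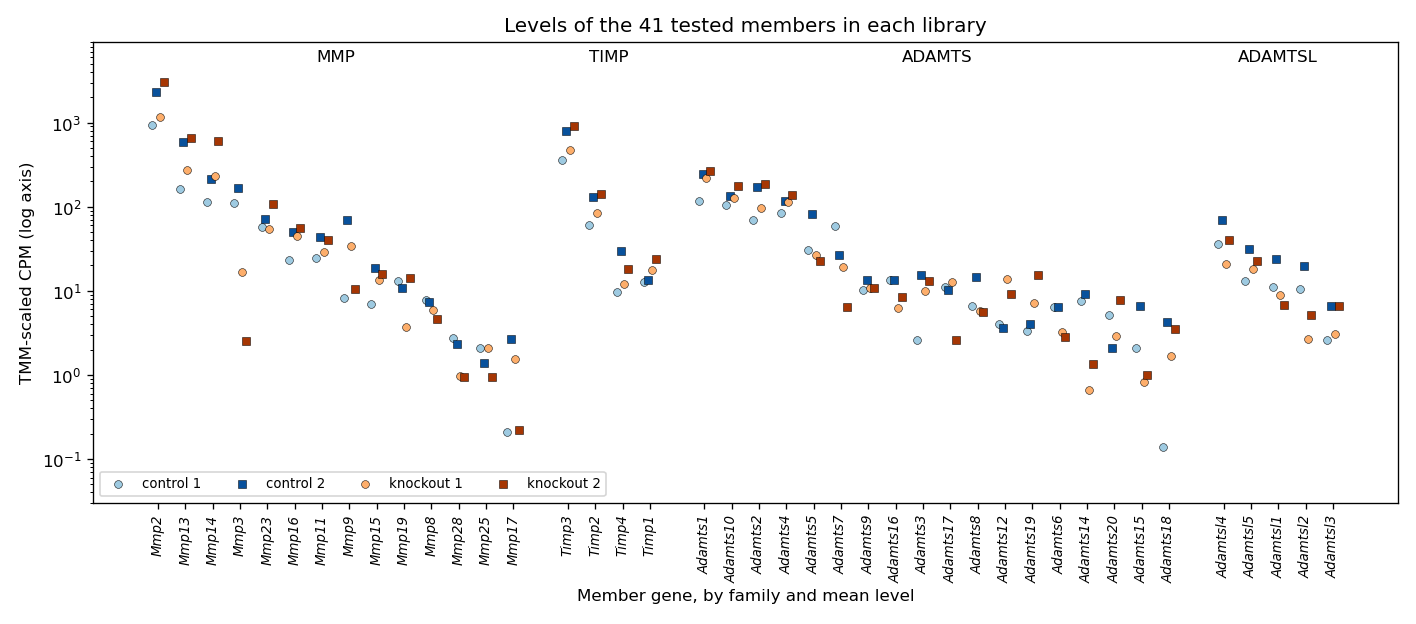
TMM-scaled CPM on a log axis for the 41 tested members in each library, by family and in order of mean level. Mmp2 lies highest (944 to 3043 CPM), and Mmp3 is the abundant member with the widest gap between control and knockout libraries.

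Membrane-type MMPs sit at the cell surface, and MMP14 activates proMMP2 there in a complex with TIMP2. Mmp14 (chromosome 14 from 54431612 to 54445364, plus strand) stood at 113 and 216 CPM in controls and 230 and 604 CPM in knockouts. Knockout 1 lay just above control 2, and knockout 2 lay well above all others. The fitted level was 2.54-fold higher (log2 fold change 1.34, SE 0.55), with an unadjusted p of 0.0462 and an adjusted p of 0.281 in edgeR. It ranged from 0.53 (without knockout 2) to 1.89 (without knockout 1) with 1 library left out. Mmp16, which encodes a further membrane-type enzyme, stood at 23.5 and 50.0 CPM against 45.2 and 56.2 CPM (0.46, SE 0.45), and its groups overlapped. Mmp15, Mmp17 and Mmp25 also overlapped, with log2 fold changes of 0.21, -0.70 and -0.19. Mmp24 had no counts. The 8 dental mesenchyme markers summed to 968 and 1198 CPM in controls and 3735 and 3235 CPM in knockouts, with none at 0. Most of each sum was Msx1, and without it the sums were 243 and 352 against 823 and 710 CPM. Of the 8 markers, 6 were higher in both knockouts, and Prrx1 and Lhx8 overlapped between the groups. The part of these markers in the Mmp14 values was not tested.

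Because the abundant members varied together between libraries, they were also set against Mmp2 in the same library, a comparison chosen after the values were seen and given without a test. Mmp14 had 12.0 and 9.35 counts per 100 Mmp2 counts in controls and 19.6 and 19.8 in knockouts. The ratio was close within the knockouts and higher in both than in either control. Timp3 had 37.7 and 35.0 against 40.5 and 29.6, and Mmp13 had 17.1 and 25.8 against 23.7 and 21.7, so both overlapped between the groups. Mmp3 had 11.7 and 7.20 against 1.44 and 0.0829, the widest spread between libraries of the 10 members, other than Mmp2, with a mean level over 50 CPM. Across all MMPs and TIMPs, there were 3.36 and 3.64 MMP counts per TIMP count in controls and 3.22 and 4.21 in knockouts.

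**Figure D3:**
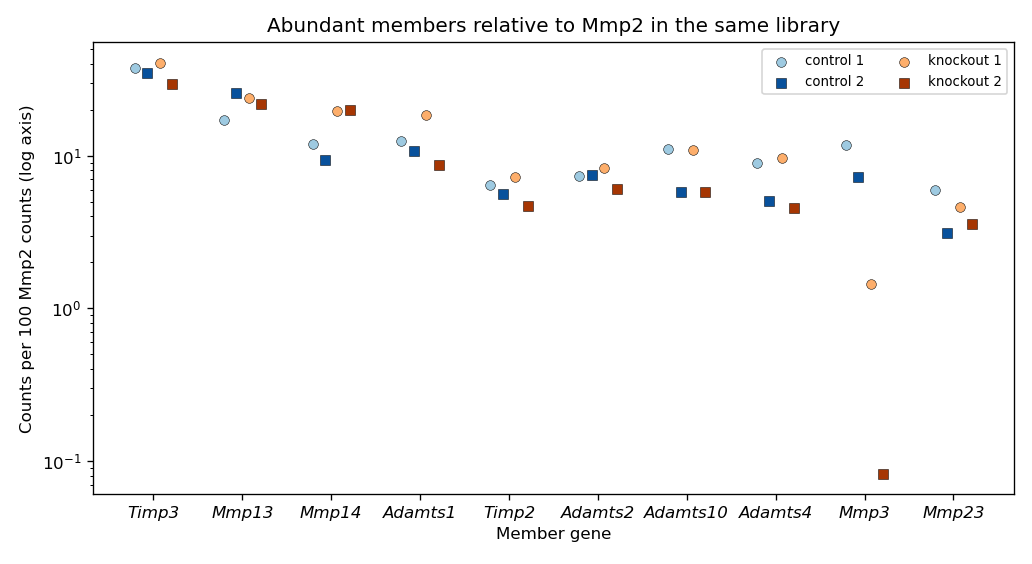
Counts per 100 Mmp2 counts in the same library, on a log axis, for 10 members with a mean level above 50 CPM. Mmp14 lies at 19.6 and 19.8 in the knockouts against 12.0 and 9.35 in the controls, Mmp3 lies lower in both knockouts, and the other 8 overlap between the groups. Members below 50 CPM are not shown. Some of them also separate on this scale, Adamts19 (higher) and Adamts14 and Adamts5 (lower) among them, and the share over all genes was not computed.

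Among the remaining MMPs, Mmp28, the gene of epilysin, stood at 2.78 and 2.35 CPM in controls and 0.974 and 0.953 CPM in knockouts. Its groups did not overlap, but it rested on 17 to 40 counts per library (log2 fold change -1.41, SE 0.93, adjusted p = 0.502 in edgeR). Mmp11, the gene of stromelysin 3, stood at 24.4 and 43.7 CPM against 28.9 and 39.7 CPM, and its fitted value of 0.01 (SE 0.43) was the closest to 0 of all tested members. Mmp23 stood at 56.6 and 72.0 CPM against 54.4 and 109 CPM (0.34, SE 0.43), and its groups overlapped. Mmp21 had at most 2 counts in any library.

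All 4 TIMP genes were tested, and Timp1 was the one whose groups did not overlap. It stood at 12.7 and 13.6 CPM in controls and 17.7 and 23.7 CPM in knockouts, a 1.57-fold higher level (log2 fold change 0.65, SE 0.43, adjusted p = 0.499 in edgeR). Timp3, whose protein is bound to the matrix, stood at 356 and 806 CPM against 474 and 900 CPM (0.24, SE 0.51) and took 80.6% to 83.0% of TIMP counts in every library. Its groups overlapped, and 21.3% of its exonic bases are shared with Syn3 on the opposite strand, from which unstranded reads cannot be told apart. Timp2 stood at 60.7 and 130 CPM against 84.6 and 142 CPM (0.25, SE 0.47), and Timp4 at 9.60 and 29.4 CPM against 11.9 and 18.4 CPM (-0.36, SE 0.61). Both overlapped between groups. The log2 fold change changed sign for Timp2, Timp3 and Timp4 when 1 control was left out, whereas Timp1 ranged from 0.47 to 0.86.

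The ADAMTS procollagen N-propeptidases, encoded by Adamts2, Adamts3 and Adamts14, remove the amino-terminal propeptide of fibrillar procollagens. Adamts14 (chromosome 10 from 61197112 to 61273438, minus strand) stood at 7.58 and 9.04 CPM in controls and 0.666 and 1.35 CPM in knockouts, from 109, 142, 13 and 24 counts. The groups were well apart, with an 8.22-fold lower level (log2 fold change -3.04, SE 0.76). In edgeR it had an adjusted p of 0.165, with 0.00434 in DESeq2 and 0.144 in limma-voom, and the value stayed between -3.58 and -2.61 with 1 library left out. Adamts2, the abundant gene of the 3, stood at 69.1 and 173 CPM against 97.2 and 185 CPM (0.22, SE 0.53). Adamts3 stood at 2.57 and 15.3 CPM against 9.99 and 12.9 CPM (0.36, SE 0.81). Both overlapped between the groups, and both changed sign without control 1 (-0.28 and -0.39). Whether Adamts14 differed from Adamts2 and Adamts3 in its response was not tested.

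The aggrecanase and proteoglycanase subfamily had 7 tested members, of which 3 were lower in both knockouts and 0 were higher (42.9% and 0%, against 24.9% and 25.8% of all genes). Adamts5, a main aggrecanase, stood at 30.6 and 80.8 CPM in controls and 26.8 and 22.9 CPM in knockouts (-1.16, SE 0.51, adjusted p = 0.312 in edgeR). The gap to control 1 was small, and the value without control 2 was -0.34. Adamts15 stood at 2.09 and 6.56 CPM against 0.820 and 1.01 CPM (-2.23, SE 0.96), from 16 to 103 counts. Adamts8, its neighbour on chromosome 9, stood at 6.54 and 14.5 CPM against 5.74 and 5.66 CPM (-0.88, SE 0.60). Control 1 was close to both knockouts there as well, and the value without control 2 was -0.23. Adamts1 lies 53.1 kb from Adamts5 on chromosome 16. It stood at 117 and 248 CPM against 217 and 264 CPM (0.40, SE 0.43), and was overlapping where its neighbour was not. Adamts4, the other classical aggrecanase, stood at 84.8 and 116 CPM against 114 and 137 CPM (0.32, SE 0.34), with knockout 1 just below control 2.

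Of the other 9 ADAMTS genes, 8 were tested, and 2 were higher and 3 lower in both knockouts (25% and 37.5%, against 25.8% and 24.9% of all genes), so the higher share was that of all genes. Adamts12, a protease linked to COMP turnover in cartilage, stood at 4.03 and 3.63 CPM in controls and 13.7 and 9.25 CPM in knockouts. Both knockouts were clearly above the controls, a 2.99-fold difference (log2 fold change 1.58, SE 0.56, unadjusted p = 0.0264, adjusted p = 0.227 in edgeR), and it ranged from 1.28 to 1.88 with 1 library left out. Adamts19 stood at 3.34 and 4.07 CPM against 7.07 and 15.5 CPM (1.60, SE 0.63, adjusted p = 0.261 in edgeR). The 7 chondrocyte markers summed to 525 and 439 CPM in controls and 823 and 1221 CPM in knockouts, most of it Sox9, and without Sox9 to 76.8 and 173 against 254 and 339 CPM. The list was mixed: Sox9, Col9a1 and Hapln1 were higher in both knockouts, Col2a1 was lower in both (17.9 and 36.4 against 13.9 and 14.8 CPM), Acan and Comp overlapped, and Matn1 was at 0 in both knockouts. Their part in these higher members was not tested. Adamts7, also linked to COMP, stood at 59.3 and 26.9 CPM against 19.3 and 6.45 CPM. It was 3.34-fold lower (-1.74, SE 0.65, adjusted p = 0.242 in edgeR), between -2.73 without knockout 1 and -1.03 without control 1. The adjusted p without knockout 1 was 0.0189, where knockout 2 alone stood for its group and the spread came from the controls. Adamts6 stood at 6.47 and 6.36 CPM against 3.23 and 2.80 CPM (-1.09, SE 0.65), and Adamts16 was lower in both knockouts as well (-0.89, SE 0.49). Adamts10, the abundant gene here, stood at 105 and 133 CPM against 127 and 176 CPM (0.35, SE 0.34) and overlapped. Adamts13, which encodes the von Willebrand factor protease, had at most 16 counts and was not tested.

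ADAMTSL proteins bind the matrix, in part at fibrillin microfibrils, and cut nothing. Of the 5 genes, 2 were lower in both knockouts and 0 were higher (40% and 0%, against 24.9% and 25.8% of all genes), with a median log2 fold change of -0.80. Adamtsl2 stood at 10.4 and 19.5 CPM in controls and 2.67 and 5.16 CPM in knockouts, a 3.83-fold lower level (-1.94, SE 0.62). It had an adjusted p of 0.202 in edgeR and 0.0456 in DESeq2, and ranged from -2.44 to -1.44 with 1 library left out. Adamtsl1 stood at 11.0 and 24.2 CPM against 8.92 and 6.78 CPM (-1.16, SE 0.55), with control 1 close to knockout 1. Adamtsl4, the most abundant of the family, stood at 35.9 and 70.0 CPM against 20.8 and 40.1 CPM (-0.80, SE 0.50), and Adamtsl5 at 12.9 and 31.4 CPM against 18.2 and 22.5 CPM (-0.13, SE 0.52). Both overlapped, as did Adamtsl3 (0.06, SE 0.79).

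Levels also differed widely between the libraries of 1 group. Of the 41 tested members, 26 (63.4%) were higher in library 2 than in library 1 of both groups, against 28.2% of the 15962 tested genes with counts in all libraries. The median log2 ratio was 0.93 between the controls and 0.37 between the knockouts, against 0.01 and -0.08 over those genes. The MMP share of all counts was 0.140% and 0.193% in the libraries numbered 1 (control, then knockout) and 0.364% and 0.458% in those numbered 2. The dental epithelium markers summed to 63457 and 22727 CPM in controls 1 and 2 and to 34847 and 42059 CPM in knockouts 1 and 2. Control 1, lowest in Mmp2, Mmp13, Mmp14 and Timp3, had the highest sum. Knockout 2, highest in those genes, had a higher sum than control 2 and knockout 1. Any relation of these markers to the member levels was not tested. Ambn made up most of each sum, and the other 7 markers summed to 10874 and 4556 CPM in controls and 3845 and 948 CPM in knockouts. Of the 8 markers, 4 (Krt14, Cdh1, Amelx and Enam) were lower in both knockouts and 0 were higher. Pericyte and smooth muscle markers summed to 829 and 1347 CPM in controls and 482 and 1265 CPM in knockouts, and odontoblast and osteoblast markers to 1305 and 2884 CPM against 1097 and 1962 CPM. Both sums were higher in the library numbered 2 of each group, but Alpl and Cnn1 were lower in control 2, and Dspp was lower in knockout 2. The part of both lists in the spread was not tested. In the knockouts, 13 of the 41 members ran the other way, and the lowest log2 ratios of knockout 2 over knockout 1 were those of Mmp17 (-2.78), Mmp3 (-2.74), Adamts17 (-2.26) and Mmp9 (-1.72).

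**Figure D4:**
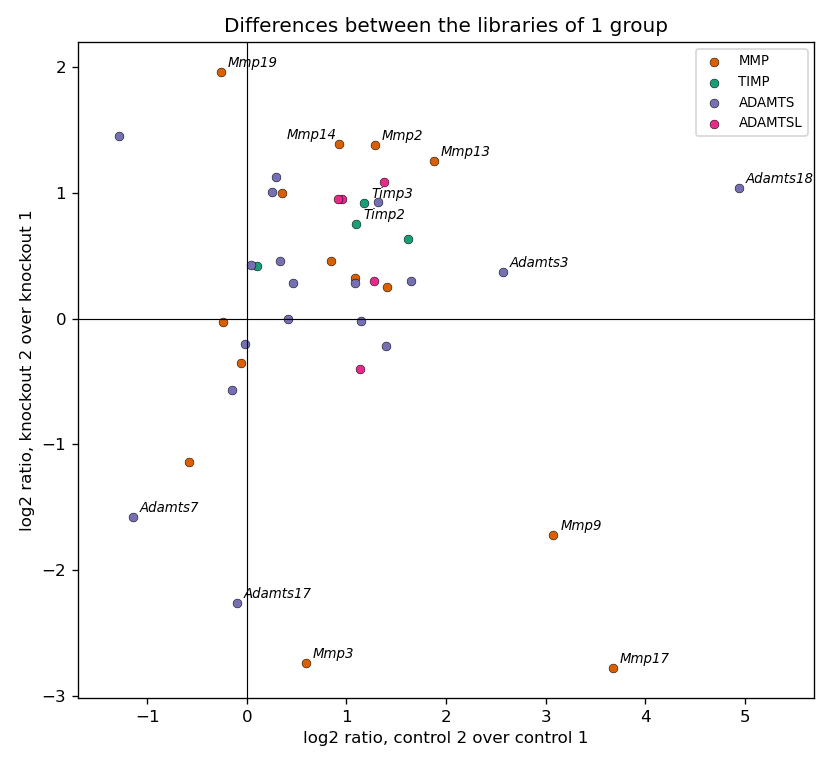
For each tested member, the log2 ratio of control 2 over control 1 (horizontal) and of knockout 2 over knockout 1 (vertical), coloured by family. Most points lie at the upper right, above 0 on both axes (26 of 41), and Mmp3, Mmp9 and Mmp17 are among the points at the lower right.

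**Figure D5:**
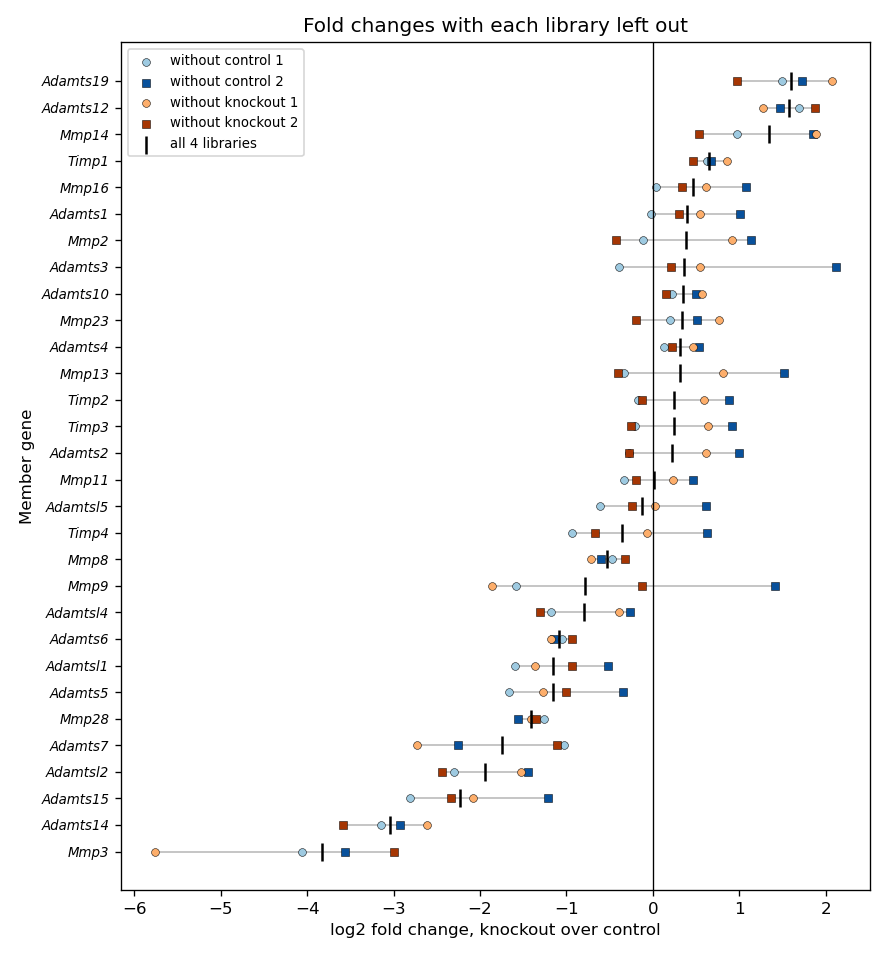
Log2 fold change, knockout over control, of the 30 named and tested members with all 4 libraries (bar) and with each library left out (points). Mmp3, Adamts14, Adamts15, Adamtsl2, Adamts12 and Adamts19 stay on 1 side of 0, and 12 members, Mmp2, Mmp13, Timp2 and Timp3 among them, cross it.

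Other genes of matrix proteolysis were taken from a list of 40 with no member in it, covering ADAM proteases, plasminogen activators, cathepsins, proprotein convertases and inhibitors. Of the 37 tested, none passed in edgeR in either direction, and 10 were higher and 12 lower in both knockouts (27.0% and 32.4%, against 25.8% and 24.9% of all genes). The median log2 fold change was -0.19. DESeq2 called 0 of the 37 higher and 6 lower, against 2.72% and 5.69% of all genes. The lower genes with the smallest p were Adam19, Papln and Ctss. Adam19, a membrane-bound ADAM protease gene, stood at 60.1 and 66.8 CPM against 14.8 and 10.0 CPM (-2.35, SE 0.40, adjusted p = 0.150 in edgeR and 4.89e-05 in DESeq2). Papln, the gene of the ADAMTS-like matrix protein papilin, stood at 113 and 72.7 CPM against 25.8 and 9.53 CPM (-2.39, SE 0.56). Ctss, the cathepsin S gene of antigen-presenting cells, stood at 135 and 38.7 CPM against 21.3 and 8.97 CPM (-2.52, SE 0.70). Of the 8 macrophage markers, 4 were lower in both knockouts and the others overlapped, and their part in the Ctss values was not tested. Adam19, Papln and Ctss had groups that did not overlap, as did the 3 with the smallest p on the higher side. Bsg, which encodes the MMP inducer basigin, stood at 796 and 532 CPM against 1353 and 1200 CPM (0.94, SE 0.36). Pcolce, an enhancer of procollagen processing, stood at 448 and 556 CPM against 841 and 981 CPM (0.86, SE 0.33). Ctsb, the gene of the lysosomal protease cathepsin B, stood at 1956 and 2314 CPM against 3373 and 4473 CPM (0.88, SE 0.34). Reck, a membrane-anchored MMP inhibitor gene, overlapped between the groups (0.58, SE 0.50).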

How the data were processed

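Polyadenylated RNA of cells sorted as CD45-, Ter119- and Tie2- was reverse transcribed with oligo-dT and template switching, amplified by PCR and fragmented by transposase, per the labels' protocols. Such libraries mark neither strand nor molecules. The authors deposited whole-number counts per Ensembl gene, not normalised. The submitters' processing notes name the GRCm38 build, featureCounts 2.0.1, Trim Galore 0.6.6 and Bowtie2 2.3.5.1. What annotation, strand setting, aligner mode and rule for shared reads they used is not given in the sources used here.

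Symbols, coordinates and exonic lengths came from GENCODE M21 (GRCm38), which held 55227 of 55487 IDs. Genotypes were compared with the quasi-likelihood test of edgeR 4.0.16 in R 4.3.3 (TMM, filterByExpr, 17128 genes, genotype only, two-sided, Benjamini-Hochberg over all genes, threshold 0.05). The SE is the log2 fold change divided by the root of F. DESeq2 1.42.0, limma-voom (limma 3.58.1), other scalings, filters, a replicate block and left-out libraries were alternatives. Members and lists were chosen with earlier results of these data known. Members given in full had groups that did not overlap and a fold of at least 2 (up to 6 per subfamily), led their subfamily in CPM (2 each), or were Mmp2, Mmp9, Mmp13, Mmp14, the TIMPs, Adamts1, Adamts4 or Adamts5; of the proteolysis list, 3 genes per direction by smallest p. Libraries of the same group were distinct (chi-square per gene of 130 for controls and 79.5 for knockouts). A count of 3 is 0.157 to 0.198 CPM, and such limits cover counting error only.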

Additional observations from a re-analysis of the deposited data

How the results depend on the processing

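With 2 libraries a group and a biological coefficient of variation of 49.2%, calls depended on the tool. Over all genes, DESeq2 called 1461, edgeR without the low-count filter 1454 and with the replicate block 244, against 0 in the main edgeR fit, limma-voom, the other scalings, the stricter filter and an adjusted p of 0.10; with 1 library left out the count ranged from 0 to 918. Among members, DESeq2 called 3 (Adamts14, Adamtsl2 and Mmp3, all lower). Without the filter 5 of 47 were called (Adamts14, Adamts7 and Mmp3 lower, Mmp12 and Mmp14 higher), against 1454 of 31364 genes. In that fit the prior degrees of freedom were infinite, so that a gene's own spread did not enter its p. With 1 library left out the member count was 0 to 2 (Mmp3 without control 1, Mmp3 and Adamts7 without knockout 1). The replicate block called 0 members. Of the proteolysis list, DESeq2 called 6 of 37, all lower, against 5.69% of all genes called lower. Without the filter edgeR called 4 of 40, all lower, against 1005 lower of 31364 genes. With the replicate block it called 2 of 37 (Ctss and Papln, both lower), against 185 lower of 17128 genes. The labels name no pairing; same-numbered libraries deviated together with a correlation of 0.145 across genes. With 1 library left out, a comparison of 3 libraries, 6 to 23 of the 43 to 45 tested members had the knockouts above the controls, against 34.9% to 40.1% of all genes, and 13 to 24 below, against 32.6% to 39.8%. Paxip1 passed in DESeq2 (-2.92) and in edgeR without the filter (-2.92). With each library left out in turn, its log2 fold change ranged from -3.18 (without knockout 1) to -2.59 (without control 2). Of 30 named members with a test, 18 kept their sign with each library left out and 12 did not: Mmp2 (-0.43 to 1.14), Mmp9 (-1.86 to 1.41), Mmp11 (-0.33 to 0.46), Mmp13 (-0.40 to 1.52), Mmp23 (-0.20 to 0.77), Timp2 (-0.17 to 0.88), Timp3 (-0.25 to 0.92), Timp4 (-0.93 to 0.63), Adamts1 (-0.02 to 1.01), Adamts2 (-0.28 to 1.0), Adamts3 (-0.39 to 2.12) and Adamtsl5 (-0.61 to 0.62). Mmp11 also turned with RLE scaling (-0.01), upper quartile scaling (-0.02) and the stricter filter (-0.07), and Adamtsl5 was 0.00 with the replicate block. Medians over lists were recomputed under each alternative, a choice made after seeing the data: that of all members was 0.51 without control 2 and -0.39 without control 1, that of TIMPs 0.77 and -0.19, that of ADAMTS genes 0.05 and -0.40, and that of ADAMTSL genes -0.26 and -1.18. The causes of these shifts were not tested beyond the number of libraries or genes in each fit.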

Other observations

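Thsd4, whose RefSeq synonyms include ADAMTSL6, carries a symbol outside the families' naming pattern. It had 794 and 3313 counts in controls 1 and 2 and 1968 and 3593 counts in knockouts 1 and 2, so the library numbered 2 held more in both groups. Mmp1a, annotated as a polymorphic pseudogene in GENCODE M21 and therefore not a member, had no counts in any library.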
